A study of Rattus norvegicus with 6 samples.

Results

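The 5 families of solute carriers described here across sham and nerve-injured ganglia are SLC6, SLC16, SLC22, SLC47 and the organic anion transporting polypeptides (SLCO). Members were chosen by their gene symbol alone, as the genes whose symbol starts with Slc6a, Slc16a, Slc22a, Slc47a or Slco. They came to 61 of the 18696 genes with group averages: 17 of SLC6, 14 of SLC16, 17 of SLC22, 2 of SLC47 and 11 of SLCO. Values for single libraries were at hand for 9 of them, among 1637 genes. RNA was sequenced from dorsal root ganglia, which hold the cell bodies of sensory neurons, of SD rats. In the SNI group (spared nerve injury, 3 libraries) the tibial and common peroneal nerves were ligated and cut, with the sural nerve spared. In the sham group (3 libraries) the sciatic nerve and its branches were laid open without that injury and the skin was closed. All rats of both groups had surgery. The sources used here do not give age, sex, time after surgery, side or spinal level. They also leave unsaid whether each library is a different rat, so p-values measure the spread between libraries only, which may be technical.

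SLC6 proteins use the sodium gradient to take up amino acids and transmitters such as GABA, glycine, serotonin and noradrenaline, and related solutes such as taurine, betaine and creatine. SLC16 proteins carry lactate, pyruvate and ketone bodies with a proton, or thyroid hormones, aromatic amino acids, carnitine or creatine. SLC22, SLC47 and SLCO proteins handle organic cations and anions, among them drugs, toxins, bile acids, prostaglandins and hormones, and are best known from kidney, liver and the barriers of brain and meninges. Ganglia hold neurons, satellite glia, Schwann cells, vessels and a connective sheath continuous with the meninges, and their transporters are spread over these cells.

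Values are TPM, a gene's share of a library's transcripts after correction for gene length, so levels can be compared between genes. The deposited average reads of all genes summed to 18590101 in sham and 18590667 in SNI, and the depth of each library is unknown. The presence of neuron transcripts was checked with 10 neuron markers. All were present, with averages in sham from 58.4 TPM (Isl1) to 7588 TPM (Nefl, the light neurofilament). The injury was visible in all 7 measured markers of injured neurons, each in the authors' higher list. Galanin (Gal) lay between 17.3 and 21.6 TPM in the sham libraries and between 500.2 and 566 TPM in the SNI libraries.

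The members spanned a wide range of levels. In sham the most abundant was Slc22a17, a receptor and carrier for lipocalin-2, at 312 TPM. Next came Slc6a15, a carrier of branched-chain amino acids and proline, at 83.6 TPM, the monocarboxylate carrier Slc16a1 (MCT1) at 73.1 TPM, Slc6a17, a vesicular amino acid carrier of neurons, at 65.0 TPM and the creatine carrier Slc6a8 at 59.0 TPM. The larger of a member's averages was at least 1 TPM for 41 members and at least 5 TPM for 26. The other 20 stayed under 1 TPM in both groups, 9 of them under 5 reads on average. Summed over all members, the averages came to 949 TPM in sham and 818 TPM in SNI.

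Few members differed much between the group averages, and those that did were mostly lower in SNI. With a pseudocount of 1, the log2 ratio of group averages (SNI over sham) was below 0 for 33 members, above 0 for 27 and 0 for 1, with a median of −0.04, beside a median of 0.02 over all genes. Among the 26 members of at least 5 TPM, 17 were lower in SNI, where 48.5% of all genes of that level were. By at least 1 on this scale, 5 members were lower, beside 0.407% of all genes, and 1 was higher, beside 2.32% of all genes. The authors' lower list held 6 members, 9.84% of the members beside 0.695% of all genes with averages. Their higher list held 1, 1.64% beside 3.63%. In order on this scale, the 5 were Slc47a1, Slc22a8, Slc22a6, Slc6a20 and Slc6a13, and the member on the other side was Slc16a3. The order of the top 3 rests on the pseudocount. Without it the log2 ratios were −2.58 for Slc22a6, −2.48 for Slc22a8 and −2.47 for Slc47a1. Averages carry no error, so these counts have no test. The authors made both lists from these same samples, so list membership is no independent evidence. Every listed gene with averages differed by at least 0.958 in size on the log2 scale of average reads.

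**Figure D1:**
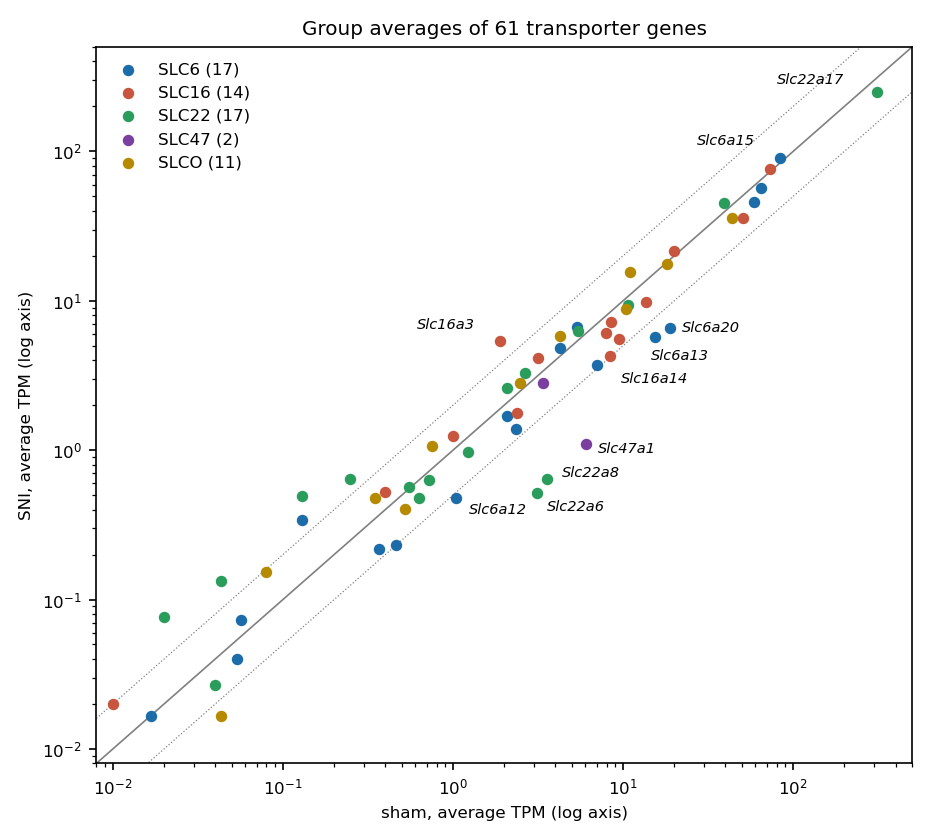
Average TPM of each of the 61 transporter genes in sham (x axis) and SNI (y axis), both on log axes, coloured by family. The solid line marks equal averages and the dotted lines a 2-fold difference; Slc47a1, Slc22a8 and Slc22a6 lie farthest below the lines among genes over 1 TPM in sham, and Slc16a3 above them.

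Of the 9 members with values per library, 8 fell and 1 rose after SNI (limma over 1596 genes, Benjamini-Hochberg adjusted p under 0.05). In the same test 29.2% of all genes were called lower and 32% higher (466 and 510 genes; 608 and 402 after quantile normalization). In all 9 the sham and SNI libraries did not overlap, which was so for 66.7% of the genes tested. The per-library table is a selection by the authors whose rule is not stated, so these 9 do not stand for all 61. In bulk tissue, fewer cells of a type and less RNA per cell cannot be told apart, here and below.

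**Figure D2:**
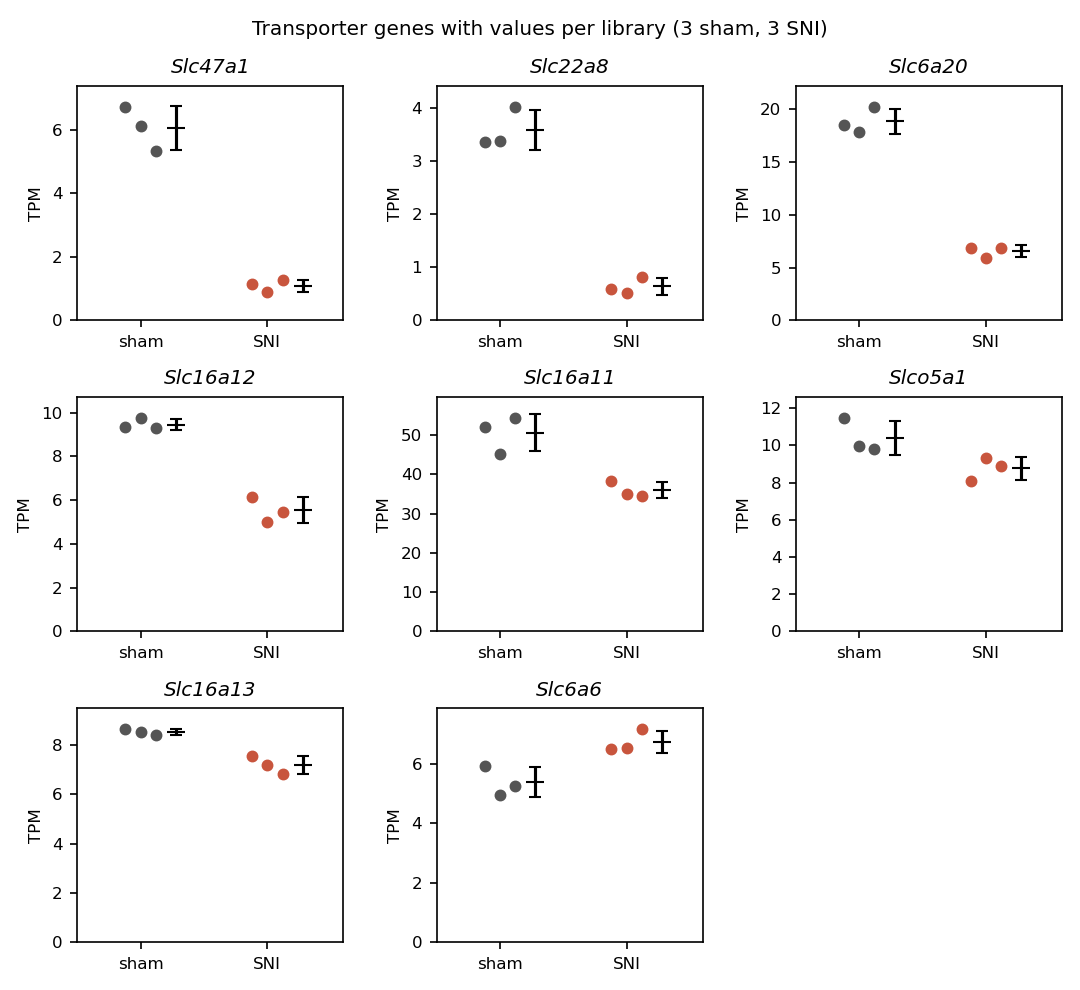
TPM of 8 of the 9 transporter genes with values per library; each point is 1 library (3 sham in grey, 3 SNI in red), and the black bar gives the mean with its SD. Axes start at 0 and differ between genes; the groups do not overlap in any panel, and the nearest libraries are 10.9 TPM apart for Slc6a20 and 0.47 TPM apart for Slco5a1.

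The promoters of members in the authors' lists are shown before their values, because these genes moved most and in opposite directions. RefSeq (GRCr8) windows from 250 bases before to 50 after the gene start were at hand for 3 of these 7 members: Slc16a3 (chr10:106712078-106712377, plus strand), Slc22a8 (chr1:214927034-214927333, plus strand) and Slc6a20 (chr8:132199851-132200150, minus strand, under its current symbol Slc6a20a). They are written 5′ to 3′, and capitals mark a match on either strand to 1 of 4 short motifs.
Slc16a3: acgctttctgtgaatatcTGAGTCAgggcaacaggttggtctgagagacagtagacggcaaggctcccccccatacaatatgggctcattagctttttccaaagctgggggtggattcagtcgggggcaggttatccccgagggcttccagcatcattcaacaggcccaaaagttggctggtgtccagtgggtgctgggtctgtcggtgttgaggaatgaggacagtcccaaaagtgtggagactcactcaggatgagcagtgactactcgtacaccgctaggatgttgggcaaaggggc
Slc22a8: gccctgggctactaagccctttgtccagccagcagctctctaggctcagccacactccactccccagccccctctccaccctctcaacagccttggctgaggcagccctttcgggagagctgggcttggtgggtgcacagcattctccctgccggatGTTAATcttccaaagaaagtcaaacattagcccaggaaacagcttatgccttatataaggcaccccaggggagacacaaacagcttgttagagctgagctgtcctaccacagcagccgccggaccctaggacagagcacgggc
Slc6a20: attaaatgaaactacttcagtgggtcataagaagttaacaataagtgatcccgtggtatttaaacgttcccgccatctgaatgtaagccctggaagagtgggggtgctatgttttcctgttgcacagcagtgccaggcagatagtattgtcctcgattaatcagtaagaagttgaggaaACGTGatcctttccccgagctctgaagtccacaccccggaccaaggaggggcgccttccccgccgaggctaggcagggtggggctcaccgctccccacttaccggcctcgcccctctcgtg

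The motifs were TGANTCA (AP-1, the Fos and Jun site), GTTAAT (part of the site of HNF1, a regulator of renal transporter genes), ACGTG (the core of the hypoxia response element) and GGGCGG (the GC box). The Slc16a3 window held 1 AP-1 match, TGAGTCA, starting at position −232 from the gene start. Slc22a8 held 1 GTTAAT match, at −93, and Slc6a20 1 ACGTG match, at −71. No GC box match lay in these 3 windows. Over 33365 RefSeq windows of this length, 7.34% held TGANTCA, 7.46% GTTAAT, 19.3% ACGTG and 33.1% GGGCGG. Among the 44 windows of members, 6, 4, 8 and 18 held them, in that order. A match is a description of the letters, not a site of binding.

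The largest negative log2 ratios of averages among the 61 members were those of the exchanger Slc47a1 and the organic anion carriers Slc22a8 and Slc22a6. Slc47a1 (Gene ID 360539) is MATE1, which exports organic cations and drugs in exchange for protons. It stood at 6.70, 6.10 and 5.33 TPM in sham replicates 1 to 3 and at 1.13, 0.89 and 1.26 TPM in SNI. Every sham library lay above every SNI library, by at least 4.07 TPM. The mean fell from 6.04 ± 0.687 to 1.09 ± 0.188 TPM (SD, n = 3 each), or −1.75 on the log2 scale (SE 0.12, limma adjusted p = 1.9e-06). For Slc47a1 with a pseudocount of 0.1, the log2 fold change was −2.37. Its relative Slc47a2 (MATE2) had averages of 3.40 (sham) and 2.84 TPM (SNI) and was in neither of the authors' lists.

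Slc22a8 (Gene ID 83500) is OAT3, which takes up organic anions such as drugs and transmitter metabolites. It stood at 3.36, 3.37 and 4.01 TPM in sham and at 0.60, 0.51 and 0.82 TPM in SNI, again without overlap. The log2 fold change was −1.48 (SE 0.13, limma adjusted p = 8.7e-06), from a mean of 3.58 ± 0.372 to 0.643 ± 0.159 TPM (SD, n = 3 each), and it was −2.32 with a pseudocount of 0.1. Slc22a6 (OAT1, Gene ID 29509), a carrier of similar substrates, has only averages, 3.11 (sham) and 0.52 TPM (SNI), or 56.7 and 9.67 reads. It was in the authors' lower list, as were Slc22a8 and Slc47a1.

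Other SLC22 members did not share this pattern. Slc22a17 had averages of 312 (sham) and 250.1 TPM (SNI). Slc22a23, an orphan carrier, averaged 39.0 and 45.0 TPM, the carnitine carrier Slc22a5 (OCTN2) 10.7 and 9.33 TPM, and Slc22a15 5.45 and 6.30 TPM. None of these was in the authors' lists, and none has values per library. The organic cation carriers Slc22a2 (OCT2) and Slc22a3 (OCT3) were under 1 TPM in both groups, at 0.72 and 0.63 TPM and at 0.63 and 0.48 TPM. The ergothioneine carrier Slc22a4 (2.09 and 2.59 TPM), Slc22a18 (2.67 and 3.27 TPM) and the urate carrier Slc22a12 (1.23 and 0.967 TPM) were low. Slc22a13 and Slc22a14 had higher averages in SNI, but on few reads: 2.38 and 9.03 reads for Slc22a13, and 4 and 10.3 reads for Slc22a14. Slc22a7, Slc22a20 and Slc22a25 stayed between 0.0267 and 0.563 TPM.

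Among amino acid and transmitter carriers, the proline and imino acid carrier Slc6a20 (SIT1, Gene ID 113918) changed most. It stood at 18.5, 17.8 and 20.1 TPM in sham and at 6.89, 5.93 and 6.84 TPM in SNI. The groups were 10.9 TPM apart at their nearest libraries. The log2 fold change was −1.39 (SE 0.08, limma adjusted p = 6.6e-07), from 18.8 ± 1.21 to 6.55 ± 0.540 TPM (SD, n = 3 each). Slc6a7, the proline carrier of neurons, stood outside both lists, with averages of 2.36 and 1.38 TPM.

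Carriers of GABA, betaine and taurine were seen at low to moderate levels. Slc6a13 (GAT2, Gene ID 171163), a GABA and taurine carrier known from meninges, kidney and liver, was in the authors' lower list, with averages of 15.4 (sham) and 5.74 TPM (SNI). Slc6a11 (GAT3), which astrocytes use for GABA, averaged 2.07 and 1.68 TPM, and the betaine carrier Slc6a12 (BGT1) 1.04 and 0.48 TPM. Of these 3, Slc6a13 was the one in the authors' lists, and none has values per library.

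The taurine carrier Slc6a6 (TauT, Gene ID 29464) was the member that rose. It stood at 5.93, 4.96 and 5.26 TPM in sham and at 6.49, 6.53 and 7.16 TPM in SNI, with the nearest libraries 0.56 TPM apart. The log2 fold change was 0.28 (SE 0.09, limma adjusted p = 0.022). The call did not hold under quantile normalization (log2 fold change 0.0062, adjusted p = 0.94), without sham replicate 2 or 3 (0.057 and 0.064) or without SNI replicate 3 (0.086).

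A further 4 SLC6 members over 1 TPM had averages alone and were in neither list. Slc6a15 was at 83.6 and 90.4 TPM, Slc6a17 at 65.0 and 57.1 TPM, Slc6a8 at 59.0 and 45.5 TPM, and the glycine carrier Slc6a9 (GlyT1) at 4.28 and 4.80 TPM. The carriers of monoamines and the neuronal glycine carrier rested on few reads. Slc6a2 (noradrenaline) averaged 0.367 and 0.217 TPM, Slc6a4 (serotonin) 0.463 and 0.233 TPM, Slc6a3 (dopamine) 0.0567 and 0.0733 TPM, and Slc6a5 (GlyT2) 0.13 and 0.34 TPM. None of these averages rested on more than 19.7 reads, the number for Slc6a5 in SNI. Slc6a14 and Slc6a16 had at most 1.33 reads on average in either group.

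**Figure D3:**
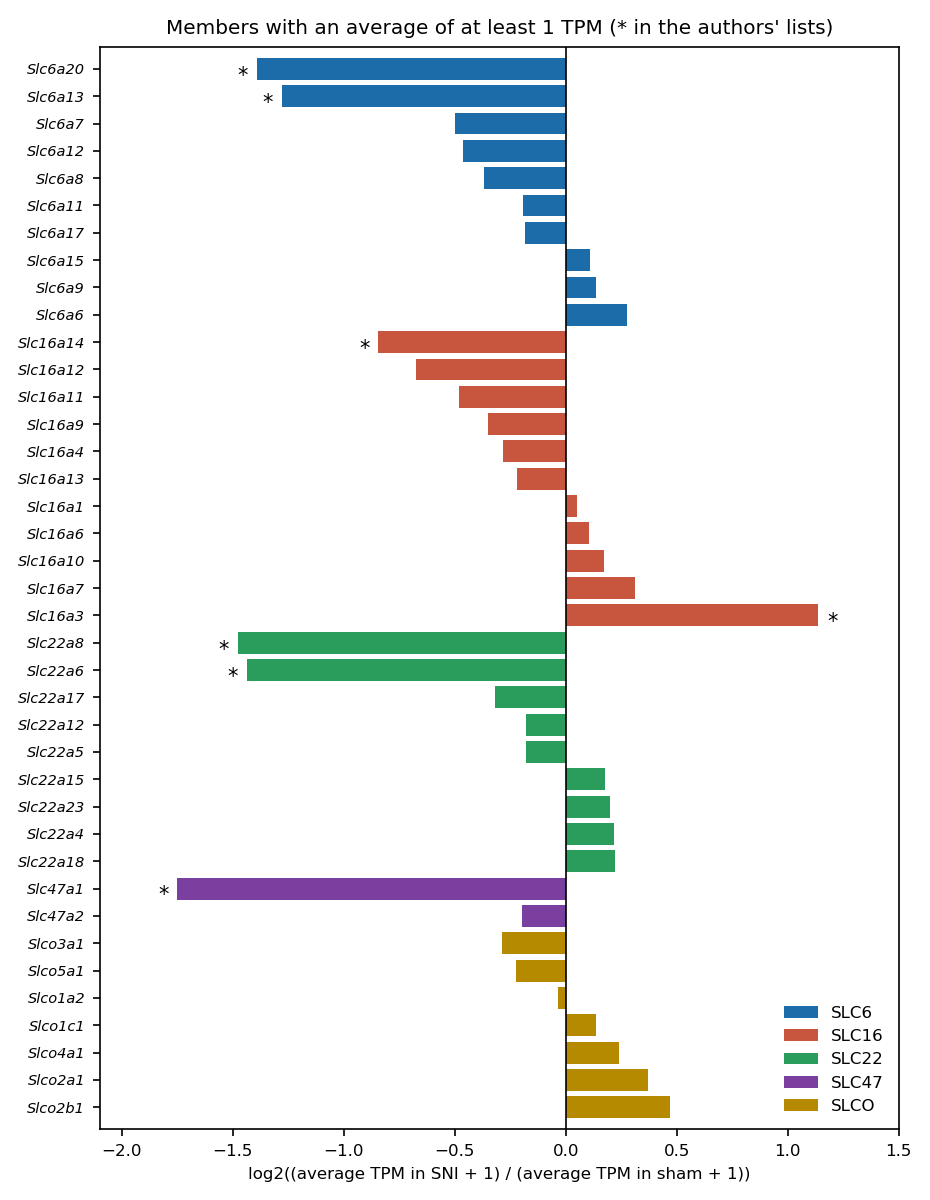
Log2 ratio of average TPM (SNI over sham, each with 1 added) for 39 of the 41 members with an average of at least 1 TPM, grouped and coloured by family. Bars to the left are lower in SNI and stars mark members of the authors' lists; averages have no error bar, and 23 of the 39 bars point left.

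Proton-linked monocarboxylate carriers of SLC16 split between a low-level member that was higher and an abundant one that was nearly level. Slc16a3 (MCT4, Gene ID 80878), which exports lactate from glycolytic cells, had averages of 1.90 (sham) and 5.38 TPM (SNI), a ratio of 2.83 resting on 37.9 and 104.6 reads. It was the only member in the authors' higher list. Slc16a1 (MCT1) averaged 73.1 and 75.8 TPM, and Slc16a7 (MCT2), a high-affinity carrier of neurons, 3.14 and 4.14 TPM. Slc16a8 (MCT3), of the retinal pigment epithelium, was at 0.40 and 0.527 TPM. Slc16a1 thus stayed far above Slc16a3 in both groups.

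All 3 SLC16 members with values per library fell: Slc16a12, Slc16a11 and Slc16a13. Slc16a12 (Gene ID 309525), a creatine carrier, stood at 9.32, 9.74 and 9.31 TPM in sham and at 6.16, 5.01 and 5.47 TPM in SNI. It fell by 0.68 on the log2 scale (SE 0.09, limma adjusted p = 0.00011), with the groups apart by 3.15 TPM. Slc16a14 (Gene ID 316578), a member without a well-known substrate, belonged to the authors' lower list, at 8.43 and 4.25 TPM. Slc16a11 (Gene ID 287450), linked to lipid metabolism in the liver, stood at 52.2, 45.3 and 54.3 TPM in sham and at 38.2, 35.1 and 34.5 TPM in SNI. It fell by 0.48 on the log2 scale (SE 0.08, limma adjusted p = 0.00047).

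Slc16a13 (Gene ID 287451), the neighbour of Slc16a11, stood at 8.64, 8.55 and 8.41 TPM in sham and at 7.54, 7.21 and 6.81 TPM in SNI. The groups did not overlap, and the log2 fold change was −0.22 (SE 0.07, limma adjusted p = 0.025). That call did not hold with the replicate number as a block (adjusted p = 0.054), without sham replicate 3 (0.057), or without SNI replicate 2 or 3 (0.067 and 0.098). With quantile normalization the log2 fold change was −0.44.

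Further SLC16 members had averages alone. Slc16a10, which carries aromatic amino acids and thyroid hormone, stood at 0.997 (sham) and 1.25 TPM (SNI). Slc16a9, linked to carnitine efflux, averaged 7.98 and 6.05 TPM, Slc16a6 19.98 and 21.52 TPM, and Slc16a4 2.38 and 1.78 TPM. None of them was in the authors' lists. Slc16a5 had under 1 read on average in both groups.

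The SLCO family, whose members carry bile acids, hormones and prostaglandins without sodium, had no member in the authors' lists. Its 11 averages summed to 91.8 TPM in sham and 88.5 TPM in SNI. Slco5a1 (Gene ID 312907), a member without a settled substrate, was its 1 member with values per library. It stood at 11.5, 9.99 and 9.80 TPM in sham and at 8.11, 9.33 and 8.91 TPM in SNI, close to each other but without overlap. The log2 fold change was −0.22 (SE 0.08, limma adjusted p = 0.046). The call was lost without any 1 library other than sham replicate 2: adjusted p was 0.12 and 0.0502 without sham replicates 1 and 3, and 0.16, 0.052 and 0.087 without SNI replicates 1, 2 and 3. With the replicate block it was 0.079, and with no filter on low values 0.0505. With quantile normalization the log2 fold change was −0.40.

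Among the other SLCO members, Slco3a1 had averages of 43.7 (sham) and 35.6 TPM (SNI). Slco2b1, a carrier of steroid sulfates that microglia and macrophages also express, averaged 11.1 and 15.7 TPM, and the prostaglandin carrier Slco2a1 4.26 and 5.79 TPM. The thyroxine carrier Slco1c1, of brain vessels, was at 2.47 and 2.81 TPM. Slco1a2, now named Slco1a4 and also known from brain vessels, was at 18.1 and 17.7 TPM. It belongs to a rat gene cluster of close copies with Slco1a5, Slco1a6 and Slco1b2, so reads may be split between them and these values are uncertain; the other copies were at 0.477 TPM or less. Slco4a1 and Slco4c1 averaged 0.753 and 1.07 TPM, and 0.52 and 0.403 TPM.

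Several members lie next to each other in the genome. In the order of RefSeq protein-coding genes (GRCr8), 12 pairs of members were adjacent, and in 9 of them both averages differed in the same direction. In 5 pairs both members reached 1 TPM, and in each of these 5 both were lower in SNI. Slc22a8 and Slc22a6 had log2 ratios of averages of −1.48 and −1.44, close to each other. Slc47a1 and Slc47a2 had −1.75 and −0.20, Slc6a13 and Slc6a12 −1.28 and −0.46, and Slc16a11 and Slc16a13 −0.48 and −0.22. Adjacency was thus seen both with like and with unlike sizes of difference, and pairs are not independent of the families.

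Markers of other cells moved in the same comparison. Of 9 markers of meningeal and root sheath fibroblasts, 8 had a lower average in SNI and 1 a higher one, with a median log2 ratio of −0.65. Some of the 8 were nearly level, such as Aldh1a2 (5.98 in sham and 5.67 TPM in SNI) and Cdh1 (130.3 and 119.5 TPM). Ptgds, the prostaglandin D synthase of meninges, had averages of 2127 (sham) and 413 TPM (SNI). Igf2, a growth factor of meninges, fell from between 38.0 and 40.8 TPM to between 15.7 and 17.8 TPM (log2 fold change −1.17, limma adjusted p = 4.3e-07). Crabp2, a retinoic acid binding protein in the same list, rose by 1.13 on the log2 scale (limma adjusted p = 5.8e-07). Foxc1, a transcription factor of meninges, averaged 6.19 and 5.29 TPM and was not called (limma adjusted p = 0.12). All 9 averages summed to 2381 and 660 TPM, mostly Ptgds. The 4 with values per library summed to 84.0 to 87.3 TPM in sham and 100.1 to 109.7 TPM in SNI. The higher SNI sum came from Crabp2 alone, with averages of 36.4 (sham) and 81.2 TPM (SNI). Igf2, Foxc1 and Bmp7 (3.66 and 1.98 TPM) had lower averages in SNI. None of the 9 was under 1 TPM in both groups. These values, and those of the other marker lists below, stand beside the lower SNI values of Slc47a1, Slc22a8, Slc22a6, Slc6a20 and Slc6a13. The part of any marked cell type in these members' values was not tested.

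Vessel and satellite glia markers had medians near 0. Of 8 endothelial markers, 6 had a higher and 2 a lower average, with a median log2 ratio of 0.07 and sums of 146.7 TPM in each group. Of the 2 tested endothelial markers 1 was called lower, the junction gene Cldn5 (57.6 and 49.9 TPM, limma adjusted p = 0.021), a call lost without sham replicate 3 or SNI replicate 2 or 3. The 7 satellite glia markers also had a median of 0.07, with 6 higher, and of 4 tested 1 was called higher and 1 lower. The higher one, Cdh19, averaged 38.9 and 53.9 TPM (log2 fold change 0.46, limma adjusted p = 8.9e-05) and kept its call in all 13 alternative fits. The lower one, the lipid carrier Apoe, lost its call under quantile normalization (limma adjusted p = 0.32). All 7 markers of myelinating Schwann cells were lower (median −0.78, sums of 10904 and 5940 TPM). Of 10 neuron markers 8 had lower averages (median −0.38, sums of 32813 and 27619 TPM), and Tubb3 and Prph had higher ones. Of the 2 tested neuron markers, Snap25 was called lower and Scn9a was not called (70.2 and 68.8 TPM, limma adjusted p = 0.69). All 8 macrophage markers had higher averages (median 1.30, sums of 107.1 and 239 TPM), beside the higher averages of Slc16a3 and Slco2b1. The 2 tested macrophage markers, Cd163 and Mrc1, were not called (log2 fold change 0.037 and 0.18, limma adjusted p = 0.73 and 0.073). All 6 erythrocyte markers were higher (median 1.58, sums of 205 and 675 TPM). The part of these cells in the members' values was not tested.

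**Figure D4:**
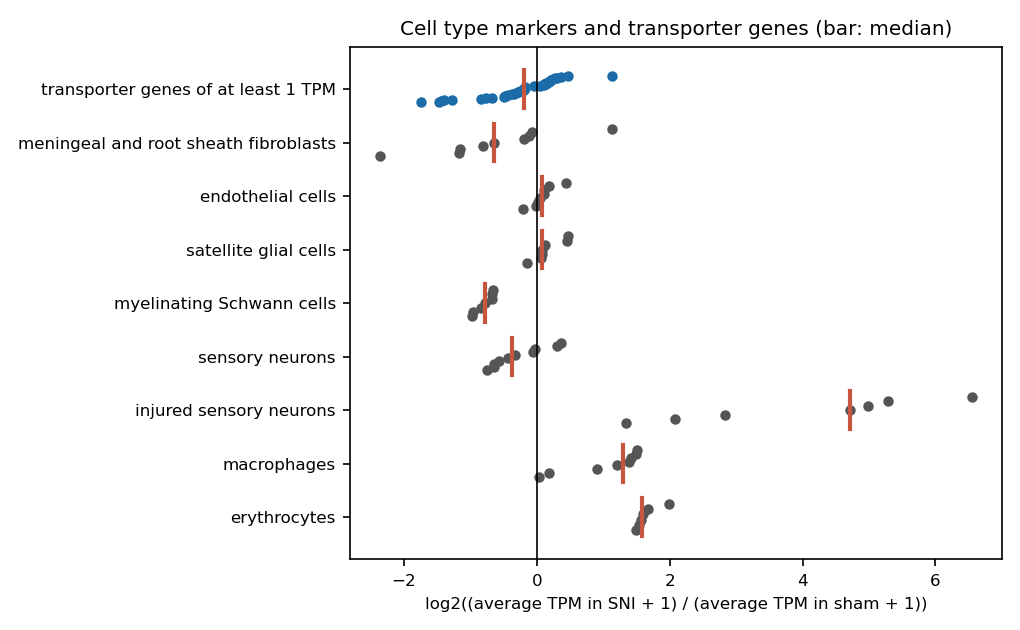
Log2 ratio of average TPM (SNI over sham, each with 1 added) for single genes of each marker list (grey) and for the 41 transporter genes of at least 1 TPM (blue); the red bar is the median of a row. The meningeal list has its median at −0.65, the myelinating Schwann cell list at −0.78 and the endothelial and satellite glia lists at 0.07.

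Genes that work with these transporters were taken from lists by function. Of 20 other transmitter transporters, 10 averages were higher and 10 lower in SNI, with 1 in each of the authors' lists: Slc1a5, a glutamine carrier, was at 2.33 and 5.23 TPM, and Slc38a3, another glutamine carrier, at 3.32 and 1.22 TPM. Of the 2 tested, the vesicular glutamate carrier Slc17a7 fell from between 258 and 290 TPM to between 215 and 228 TPM (log2 fold change −0.31, limma adjusted p = 0.00077), and 1 was not called. Of 17 genes of lactate, pyruvate and ketone body handling, 9 were higher and 8 lower, and none was in the authors' lists. Basigin (Bsg), the partner that brings MCT1 and MCT4 to the membrane, averaged 1057 and 980 TPM, and the lactate dehydrogenase genes Ldha and Ldhb 559.6 and 638 TPM, and 677 and 487 TPM. Of 3 tested, the glycolysis regulator Pfkfb3 rose (log2 fold change 0.39, limma adjusted p = 7.6e-05), 1 fell and 1 was not called.

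Of 18 synthesis and breakdown genes of SLC6 substrates, 13 averages were lower and 5 higher, where 45.9% of all genes were lower. Their median log2 ratio was −0.26, and none was in the authors' lists. Some of the 13 were nearly level, such as Aldh5a1, an enzyme of GABA breakdown (12.3 and 12.2 TPM). Gad1 and Gad2, the enzymes of GABA synthesis, were under 1 TPM in both groups, while Abat, which breaks GABA down, averaged 35.1 and 26.8 TPM. Proline enzymes Prodh and Pycr1 averaged 24.1 and 15.0 TPM, and 8.36 and 4.28 TPM. Of 3 tested, 2 fell and 1 was not called: Gatm, the first enzyme of creatine synthesis (log2 fold change −0.28, limma adjusted p = 0.0084), and Gldc, which breaks down glycine (−0.48, adjusted p = 0.025). The call of Gldc was lost without sham replicate 1 or 2 (adjusted p = 0.095 and 0.056) or without SNI replicate 2 or 3 (0.086 and 0.075), and its log2 fold change was −0.72 with a pseudocount of 0.1 and −0.87 with quantile normalization.

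The thyroid hormone list had 6 measured genes, 4 higher and 2 lower. The deiodinases Dio2, which activates the hormone, and Dio3, which inactivates it, were in the authors' higher list. They averaged 0.96 and 2.19 TPM, and 0.08 and 0.787 TPM. The averages of Dio3 rested on few reads, 1.33 in sham and 13.3 in SNI. Dio2 rose in the test (limma adjusted p = 0.00078), with a log2 fold change of 0.71, which was 1.12 with a pseudocount of 0.1. Quantile normalization ended that call (0.28, adjusted p = 0.072). Ttr, the thyroxine binding protein transthyretin, fell (log2 fold change −0.67, limma adjusted p = 0.0091). It stood at 3.02, 3.51 and 3.77 TPM in sham and at 2.57, 1.78 and 1.15 TPM in SNI. These rested on 21 reads on average in sham and 11.3 in SNI. Its log2 fold change was −1.11 with quantile normalization. Of 9 carnitine genes, 6 averages were lower and 3 higher, and of 10 efflux pumps 5 were lower and 5 higher, with none in the authors' lists. The drug efflux pumps Abcb1a and Abcg2 averaged 11.5 and 11.4 TPM, and 22.9 and 21.5 TPM.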

How the data were processed

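The members and gene lists were chosen with earlier results of these data known. As deposited by the authors, per the file headers, values are TPM per library for part of the genes, the average TPM of each group, and average read counts, which are estimated counts with no counter named. The sources used here name no aligner, build, annotation, strand setting or test for the authors' higher and lower lists. The labels name both Trizol with TruSeq and mirVana with NEBNext, and which was used cannot be told; whether ganglia or rats were pooled is not said. Columns named control were taken as sham. Averages over libraries differed from the deposited averages by less than 0.001 TPM in all 1628 genes of both tables.

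Group was the single term of a limma fit (3.58.1, R 4.3.3) of log2(TPM + 1) with a trend on intensity, over the 1596 genes that averaged 1 TPM or more across the 6 libraries, leaving out 41. P-values were adjusted by Benjamini-Hochberg and called at 0.05. Fold changes on this scale understate those of low genes. The fit was tested on simulated data, with changes larger than those of Slc6a6, Slc16a13 and Slco5a1, so it does not cover their calls. Ratios of averages used the same pseudocount and have no test. Per design, all members with values per library, in the authors' lists or at 5 TPM or more were named, except a few genes that enter the counts and are not reported here, and pathway lists gave at most 3 called genes each. Further members and list genes were named after their values were seen. All 61 members matched RefSeq by gene ID, and 141 of 143 list genes matched averages. Alternatives changed the pseudocount, filter, scaling, trend, block or libraries. Tables used Python 3.11.15 with pandas 2.3.3 and numpy 2.4.6, figures matplotlib 3.10.9.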

Additional observations from a re-analysis of the deposited data

How the results depend on the processing

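Of 115 refits of the 9 members' fold changes, 100 kept their direction and their side of the threshold, 15 kept the direction and lost the call, and none reversed. The lost calls were those of Slc6a6, Slc16a13 and Slco5a1, with the cause not tested. The other 6 members kept theirs in every refit that tested them; Slc47a1 and Slc22a8 could not be tested at a mean of at least 5 TPM. The number of members called higher was 1, and 0 after quantile normalization. Leaving out 1 library gave 0 to 1 members called higher and 6 to 8 called lower (7 without sham replicate 1 or SNI replicate 1). Without a filter 7 were called lower, and at 5 TPM or more 6. With the replicate block, 6 members were called lower and 1 higher. Deviations of same-numbered libraries from their group means had correlations of −0.09, −0.06 and 0.19 across 1596 genes. Those of differently numbered libraries ran from −0.29 to 0.29. With 3 libraries per group this cannot tell whether a number marks a shared animal, litter or day. The median log2 ratio of the members' averages, −0.04, moved to −0.14 with a pseudocount of 0.1, −0.17 with average read counts, −0.19 at 1 TPM or more and −0.22 at 5 TPM or more; low members lie near 0 by construction of the pseudocount. TPM keep no depth, so what depth limits in a library is unknown.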
